A study of Mus musculus with 4 samples.

Results

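The genes described here were highest at E13.5 in a series on the fetal mouse pancreas. They were chosen from the measured values: a protein-coding gene of GENCODE M21 was a member when its deposited mean at E13.5 was 10 FPKM or more and its log2(FPKM + 1) at E13.5 lay 0.7 or more above each of E11.5, E15.5 and E18.5. FPKM counts fragments per kilobase of transcript, divided by a number for each library, so levels can be set side by side between genes. The rule found 34 genes among the 4342 protein-coding genes at 10 FPKM or more at E13.5, and among 21918 protein-coding genes in all. Because E13.5 values chose the members, each difference between E13.5 and another stage is a description and has no test.

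RNA sequencing of total RNA was done on material that the series describes as pancreatic epithelium from wild-type C57BL/6 mouse fetuses. The labels give 1 sample at each of 4 stages, which were E11.5 (E, embryonic day), E13.5 and E15.5 in mid-gestation and E18.5 shortly before birth, and no genotype, transgene or treatment other than wild type at any stage. At least 20000 cells went into each sample, and the labels do not say how the epithelium was taken out. The files hold means, and the numbers themselves could be split into whole reads of 2 libraries per stage, with an estimated 1.37e+07 to 1.80e+07 reads per library. No label says that these libraries came from separate embryos or litters, so their spread may be technical. In bulk samples, fewer cells of a type and less RNA per cell cannot be told apart.

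Around E13.5 the mouse pancreas passes from a bud of multipotent progenitors to a branching epithelium in which tip cells become acinar and trunk cells form ducts and endocrine progenitors. The transcription factor Neurog3 marks endocrine progenitors, whose descendants include the glucagon-producing alpha cells. Some peptide genes best known from the gut, among them those of gastrin and cholecystokinin, are also transcribed in the fetal pancreas.

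The samples differed in markers of other cell types. The summed level of 5 erythroid markers was 6476 FPKM at E11.5, then 213 at E13.5, 178 by E15.5 and 310 by E18.5, and that of 5 neural and glial markers was 595, 17.8, 9.17 and 36.1 FPKM in the same order. Of 4 endothelial markers, the sum was at most 0.508 FPKM in any stage, whereas 4 epithelial markers summed to 820 FPKM at E11.5, then 2226 at E13.5, 3025 by E15.5 and 3413 by E18.5. Acinar markers (6 genes) summed to 4.14, 2765, 49725 and 16405 FPKM, again from E11.5 to E18.5. Pdx1, 1 of 26 pancreatic progenitor and trunk factors measured, was at 2.90, 81.2, 62.2 and 74.5 FPKM in the same stages. Of the 26, 15 were at least 2-fold higher at E13.5 than at E11.5 and 1 was lower, where the higher value was 5 FPKM or more. The E11.5 sample thus differed from the others in pancreatic factors too. The part of these differences in any E13.5 peak was not tested.

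A peak at E13.5 was the rarest of the 4. By the same rule E11.5 was the peak of 529 of 4360 genes (12.1%), E13.5 of 34 of 4342 (0.783%), E15.5 that of 389 of 4332 (8.98%) and E18.5 that of 380 of 4396 (8.64%). The rule asked the same distance above each other stage in all 4 counts. The 2 end stages have 1 neighbour in time and the 2 inner stages, E13.5 and E15.5, have 2, and the part of this in the counts was not tested. With each stage set to the same FPKM total, 99 genes met the rule at E13.5, among them 32 of the 34. With no distance required, E13.5 was the highest stage in 1491 of 12474 protein-coding genes (11.95%) that reached 1 FPKM in any stage.

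The member levels at E13.5 ran from 10.1 to 765 FPKM with a median of 24.0 FPKM. The distance from E13.5 to the next highest stage ran from 0.72 to 2.88 on the log2(FPKM + 1) scale, with a median of 0.98. The next highest stage was E11.5 for 10 members, E15.5 for 16 and E18.5 for 8. Just inside the limit of 0.7 lay Cldn6 (0.72), Sct (0.74), Gast (0.77), Gm7879 (0.77) and Smtnl2 (0.77). Just outside it lay Bid (0.68), Plac1 (0.68), Grb10 (0.68), Cda (0.67) and Fgfrl1 (0.67).

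**Figure D1:**
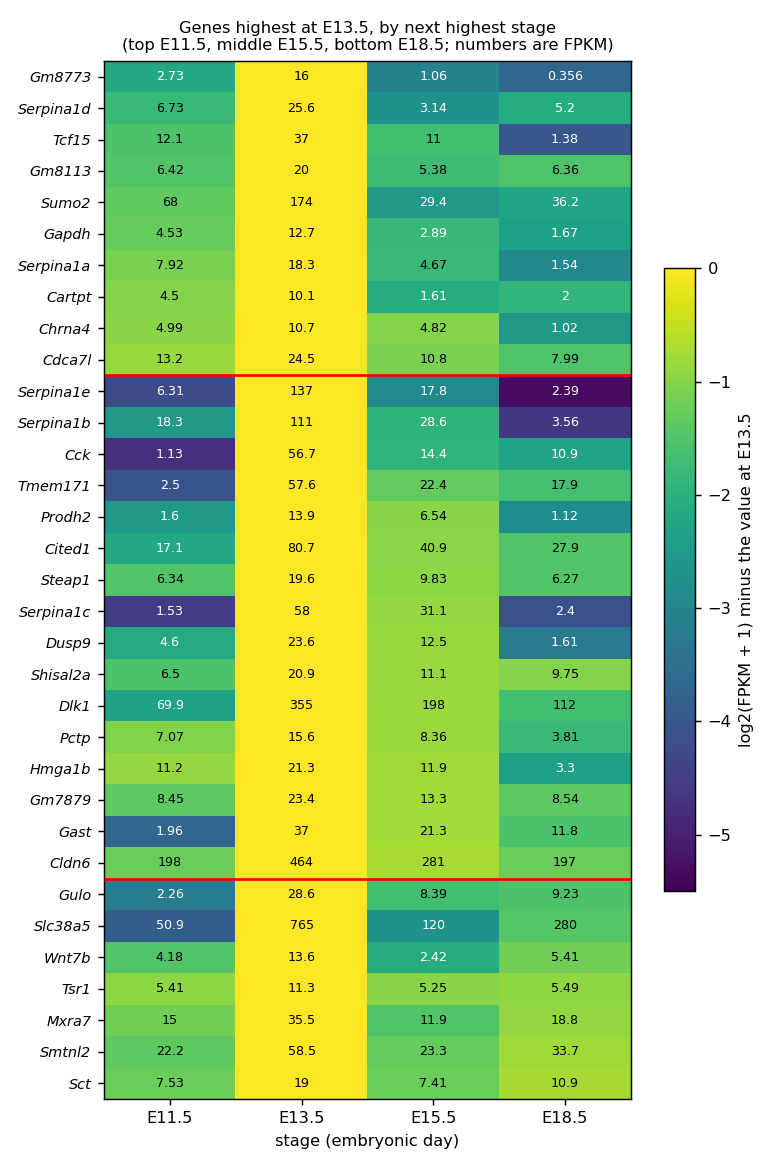
Each line of the heat map is 1 member and each column 1 stage, with 1 of the 34 members not drawn. The colour is log2(FPKM + 1) minus the value at E13.5 and the printed numbers are deposited mean FPKM. Red lines part the members by next highest stage, with E11.5 above, E15.5 in the middle and E18.5 below, and Slc38a5 has the highest printed value at 765 FPKM.

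The place of E13.5 above the other stages could be read in the libraries for most members, while the order of those other stages was not examined. For 23 members the mean was split in all 4 stages, and in all 23 the lower E13.5 library was above the higher library of every other stage. The 0.7 distance was met in every pairing of libraries by 18 of them, and not by Cartpt, Prodh2, Gm7879, Gast and Sct. The same means had chosen the members, and the 2 libraries of a stage differed by a median ratio of 1.07 to 1.12. That all 23 kept E13.5 on top was therefore nearly set by the rule and is no separate support for the peaks. The other 11 members had at least 1 stage that could not be split, either because the reads were too many for a unique answer or because no pair of whole reads gave the deposited value.

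The alpha-1-antitrypsin genes made the most compact group of members. Alpha-1-antitrypsin is a secreted inhibitor of neutrophil elastase made in large amounts by the liver, and mice carry several close copies of the gene. All 5 copies named Serpina1a to Serpina1e were members, and they lie within a 231 kb stretch of the minus strand of chromosome 12 (mm10 chr12:103728156-103958975). The chromosome held 7 of the 34 members (20.6%) and 148 of the 4342 genes at the same minimum level (3.41%), with Dlk1 and Cdca7l as the other two. Chromosome 11 also held 7 members (9.49% of the 4342 genes), which are separate genes, and the X chromosome held 4 (3.27%).

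The start regions of the 5 copies are shown because all 5 genes were members and because the copies are nearly identical there. Each line gives 60 bases before and 50 after a shared GTTAAT, which is in capitals and matches part of the site bound by the HNF1 factors. The stretches are from RefSeq (GRCm38.p6, minus strand, 5′ to 3′): chr12:103863585-103863700 for Serpina1a, chr12:103738160-103738275 for Serpina1b, chr12:103904922-103905037 for Serpina1c, chr12:103773594-103773709 for Serpina1d and chr12:103956920-103957035 for Serpina1e.
Serpina1a: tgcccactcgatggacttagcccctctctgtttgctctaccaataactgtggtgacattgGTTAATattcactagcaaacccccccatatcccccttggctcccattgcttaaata
Serpina1b: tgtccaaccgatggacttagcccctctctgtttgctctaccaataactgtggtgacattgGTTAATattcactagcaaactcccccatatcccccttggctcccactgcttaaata
Serpina1c: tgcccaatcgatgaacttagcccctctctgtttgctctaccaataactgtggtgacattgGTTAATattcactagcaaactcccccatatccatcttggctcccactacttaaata
Serpina1d: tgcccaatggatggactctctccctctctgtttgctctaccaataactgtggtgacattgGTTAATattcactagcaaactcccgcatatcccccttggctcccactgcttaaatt
Serpina1e: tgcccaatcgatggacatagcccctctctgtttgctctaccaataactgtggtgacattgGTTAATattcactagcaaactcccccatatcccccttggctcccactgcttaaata

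Of the 116 positions shown, 99 held the same base in all 5 copies. Over their whole overlapping promoter windows, the 10 pairs were 91.4% to 97.6% identical. The GTTAAT overlaps by 1 base a CCAAT read on the other strand just before it. A GTTAAT on either strand stood in 6 of the 26 member promoters in the RefSeq table (23.1%; the 5 serpins and Prodh2), and in 155 of 3464 promoters of other genes at 10 FPKM or more at E13.5 (4.47%). These are matches of letters in a window of 300 bases, and the 5 copies are not independent of each other.

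Serpina1e (ENSMUSG00000072849, mm10 chr12:103946931-103958975) had the largest distance of all 34 members. Its level was 6.31 FPKM at E11.5, then 137 at E13.5, 17.8 by E15.5 and 2.39 by E18.5, a 7.70-fold excess at E13.5 over E15.5. The libraries read 6.00 and 6.63 FPKM at E11.5, 17.2 and 18.4 by E15.5, then 2.92 and 1.86 by E18.5, all far below the E13.5 mean, which could not be split.

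Serpina1b (ENSMUSG00000071178, mm10 chr12:103728156-103830373) was next in level, at 18.3 FPKM at E11.5, then 111 at E13.5, 28.6 by E15.5 and 3.56 by E18.5. Serpina1c (ENSMUSG00000079015, mm10 chr12:103894926-103904887) was at 1.53 FPKM at E11.5, then 58.0 at E13.5, 31.1 by E15.5 and 2.40 by E18.5. Of the 5 copies it had the E15.5 level nearest to that at E13.5, with libraries of 56.4 and 59.6 FPKM at E13.5 against 30.2 and 31.9 FPKM at E15.5. These 3 copies therefore had E15.5 as next highest stage.

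Serpina1d (ENSMUSG00000071177, mm10 chr12:103763594-103773592) differed in having E11.5 next, with 6.73 FPKM at E11.5, then 25.6 at E13.5, 3.14 by E15.5 and 5.20 by E18.5. Serpina1a (ENSMUSG00000066366, mm10 chr12:103853589-103863562) did so too, at 7.92 FPKM at E11.5, then 18.3 at E13.5, 4.67 by E15.5 and 1.54 by E18.5. Its E13.5 libraries were 21.2 and 15.4 FPKM, a gap of 5.44 times the counting error. The 5 levels summed to 40.8 FPKM at E11.5, then 350 at E13.5, 85.3 by E15.5 and 15.1 by E18.5.

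The 5 copies cannot be told apart with certainty. Between 29.5% (Serpina1b) and 79.3% (Serpina1c) of their 50-base transcript windows occur in another gene, and the counting tool, with its treatment of such reads, is not named in the labels. Levels of single copies are uncertain for that reason.

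Other liver-type genes had several profiles. Alb, the serum albumin gene, was at 64.6 FPKM at E11.5, then 0.567 at E13.5, 2.45 by E15.5 and 4.96 by E18.5. Afp, the alpha-fetoprotein gene, was at 334, 27.1, 21.2 and 1.28 FPKM in the same stages. Of the 10 liver genes measured from the list, E11.5 was the highest stage of 7, E13.5 of 2 (Serpina1a among them) and E15.5 of 1. Over the 12474 protein-coding genes the shares of these stages were 36.1%, 11.95% and 27.3%. The 10 summed to 675 FPKM at E11.5, then 403 at E13.5, 598 by E15.5 and 500 by E18.5. At E13.5 their levels ran from 0.0489 FPKM (Ahsg) to 330 FPKM (Ttr), with Afp at 27.1, Apoc1 at 13.7, Apoa1 at 8.08, Fgb at 1.25 and Alb at 0.567 FPKM. At E13.5 Ttr, Apoc1 and Serpina1a were higher than at E11.5, and the other 7 were lower. The part of liver RNA in the serpin levels was not tested. Ttr, the transthyretin gene, which is also made in alpha and beta cells, was at 43.9, 330, 548 and 473 FPKM from E11.5 to E18.5.

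The rest of the serpin cluster differed from the 5 copies. Of 23 Serpina genes on chromosome 12, 8 reached 1 FPKM in some stage and 5 of those were members. Serpina6, which encodes the plasma carrier of corticosteroids and was named after its values were seen, was at 106 FPKM at E11.5, then 1389 at E13.5, 3437 by E15.5 and 39.3 by E18.5. It thus stood highest at E15.5. Serpina10, a gene for a coagulation protease inhibitor, was nearly level between E13.5 (6.20 FPKM) and E15.5 (6.03 FPKM).

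**Figure D2:**
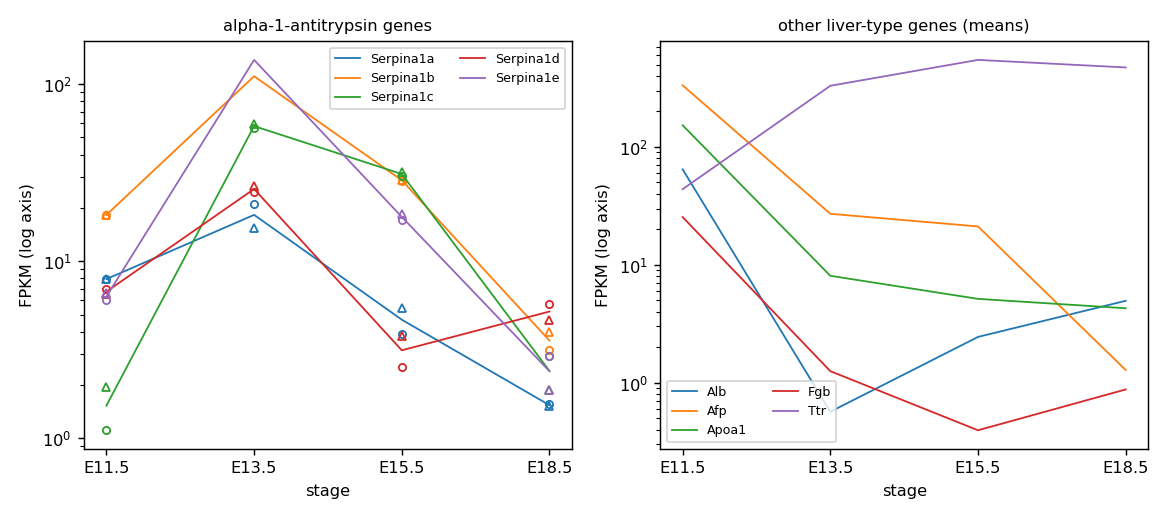
The left panel plots FPKM on a log axis against stage for Serpina1a to Serpina1e, with lines for the deposited means and circles and triangles for the 2 recovered libraries where a mean could be split. The right panel plots the means of other genes of liver type. All 5 serpins are highest at E13.5, where their levels run from 18.3 to 137 FPKM, while Alb, Afp, Apoa1 and Fgb are highest at E11.5.

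Genes for peptide hormones and neuropeptides were the next group, with 4 members. Cck encodes cholecystokinin and Gast encodes gastrin, which act through related receptors. Their start regions are given because both genes had very low levels at E11.5 and the largest differences between E13.5 and E11.5 among the 4. The Cck window is RefSeq GRCm38.p6 chr9:121495645-121495944 on the minus strand with a CAGATG (an E-box, the kind of site bound by basic helix-loop-helix factors) in capitals, and the Gast window is chr11:100334157-100334456 on the plus strand with a TATAAA read on the other strand in capitals. Both run 5′ to 3′.
Cck: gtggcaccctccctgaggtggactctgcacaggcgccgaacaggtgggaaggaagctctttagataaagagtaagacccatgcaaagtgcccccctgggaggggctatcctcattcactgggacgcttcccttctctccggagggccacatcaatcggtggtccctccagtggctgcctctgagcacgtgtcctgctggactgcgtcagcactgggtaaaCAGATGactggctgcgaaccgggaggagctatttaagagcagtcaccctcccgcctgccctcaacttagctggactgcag
Gast: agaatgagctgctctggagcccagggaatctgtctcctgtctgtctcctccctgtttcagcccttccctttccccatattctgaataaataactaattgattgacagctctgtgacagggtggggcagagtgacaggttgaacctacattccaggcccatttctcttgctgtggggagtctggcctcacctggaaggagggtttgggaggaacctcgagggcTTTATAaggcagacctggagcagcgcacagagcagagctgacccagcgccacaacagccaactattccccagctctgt

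The CAGATG starts 30 bases before the annotated start of Cck and overlaps by 2 bases a TGTTTAC read on the other strand, letters bound by forkhead factors. CAGATG on either strand occurred in 4 of 26 member promoters (15.4%) and in 9.90% of the 3464 others, and TATAAA in 3 of 26 (11.54%) and 7.02%. Both shares rest on a handful of genes.

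Cck (ENSMUSG00000032532, mm10 chr9:121489824-121495694) was at 1.13 FPKM at E11.5, then 56.7 at E13.5, 14.4 by E15.5 and 10.9 by E18.5. Its libraries were 58.6 and 54.7 FPKM at E13.5 against 15.3 and 13.54 FPKM at E15.5, and none of the other stages overlapped E13.5. The E13.5 level was 3.93-fold that at E15.5. At E11.5 the 2 libraries held 18 and 36 reads of Cck, so that level is known only roughly.

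Gast (ENSMUSG00000017165, mm10 chr11:100334407-100336996) was at 1.96 FPKM at E11.5, then 37.0 at E13.5, 21.3 by E15.5 and 11.8 by E18.5. At E15.5 it stood closer to its E13.5 level than Cck did: libraries were 38.0 and 36.0 FPKM at E13.5, then 20.4 and 22.2 by E15.5, then 10.3 and 13.4 by E18.5. At E18.5 Cck was at 9.60 times and Gast at 6.04 times its E11.5 level, given with no test because both were singled out for low values at E11.5.

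Sct encodes secretin, the hormone that stimulates bicarbonate secretion by pancreatic ducts. It was at 7.53 FPKM at E11.5, then 18.96 at E13.5, 7.41 by E15.5 and 10.9 by E18.5. Its E15.5 level less its E11.5 level was -0.02 ± 0.11 SE on the log2 scale (adjusted p = 0.878, limma on the recovered libraries). Cartpt, which encodes the CART neuropeptide found in neurons and islet cells, was the lowest member at E13.5, with 4.50 FPKM at E11.5, then 10.1 at E13.5, 1.61 by E15.5 and, in its libraries, 2.17 and 1.83 by E18.5. Its E13.5 libraries were 11.3 and 8.96 FPKM and its E11.5 libraries 3.80 and 5.19 FPKM, which do not overlap but stand closer together than in Cck or Gast.

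Most other hormone genes were highest at the last stage. Of 20 islet hormone and granin genes measured from a list that holds Cck and Gast, 16 were highest at E18.5 and 4 at E13.5, against 24.7% and 11.95% of the 12474 protein-coding genes. The 4 were Cck, Gast, Gip and Chgb. Gip, the gene of the gut hormone GIP, was at 0.0402 FPKM at E11.5, then 13.6 at E13.5, 9.59 by E15.5 and 3.77 by E18.5, a distance of 0.46 that missed the limit. Chgb, which encodes the granule protein chromogranin B, was at 20.2, 839, 167 and 563 FPKM, with a distance of 0.57. By contrast Gcg, the glucagon gene, was at 208, 2467, 1420 and 15154 FPKM, and Ghrl, the ghrelin gene, at 0.355, 20.2, 44.0 and 207 FPKM.

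**Figure D3:**
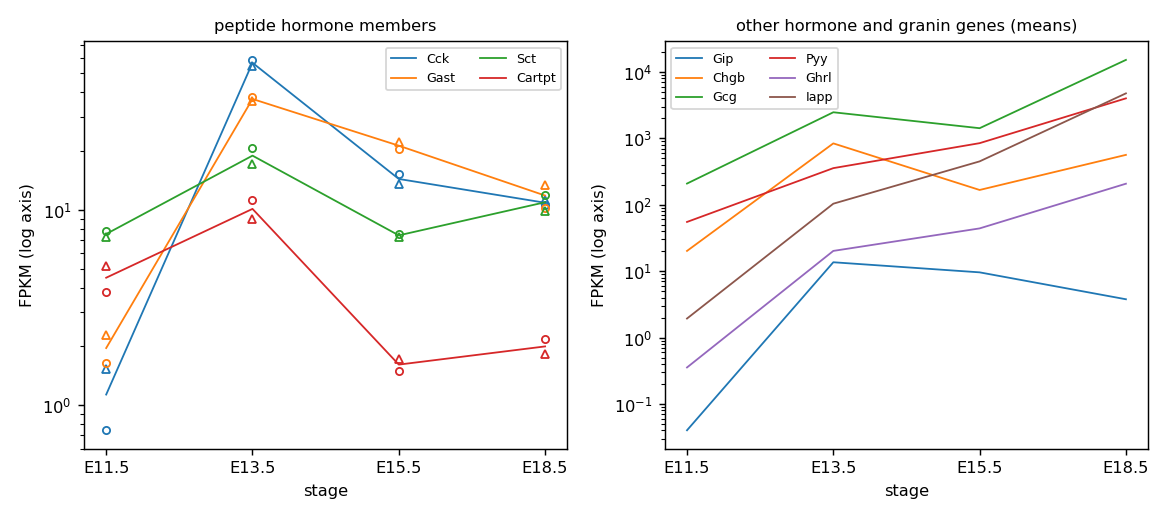
The left panel plots FPKM on a log axis against stage for the 4 peptide genes among the members, with lines for the deposited means and circles and triangles for the 2 recovered libraries. The right panel plots means of other hormone and granin genes. Cck peaks at 56.7 FPKM and Gast at 37.0 FPKM at E13.5, while Gcg, Pyy, Ghrl and Iapp are highest at E18.5.

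Members concerned with transport and metabolism numbered 5. Slc38a5 encodes SNAT5, a sodium-coupled carrier of glutamine and other neutral amino acids that is known from alpha cells. It was the most abundant member. Slc38a5 (ENSMUSG00000031170, mm10 chrX:8271133-8280179) was at 50.9 FPKM at E11.5, then 765 at E13.5, 120 by E15.5 and 280 by E18.5. The E15.5 libraries were 119 and 120 FPKM and the E11.5 libraries 51.3 and 50.6 FPKM, and the means at E13.5 and E18.5 could not be split.

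Slc38a5 had a second, lower high point at E18.5. Among stages that the rule did not use against each other, it was 2.34-fold higher at E18.5 than at E15.5, and 2.35-fold higher at E15.5 than at E11.5 (log2 difference 1.21 ± 0.03 SE, adjusted p = 8.92e-06 by limma). Of 15 amino acid transport genes measured, it was the only member. Its relative Slc38a4 was at 7.28, 50.3, 21.5 and 43.2 FPKM from E11.5 to E18.5, with E13.5 above E18.5 by 0.21 on the log2 scale, and Slc38a3 was highest at E15.5, at 40.2 FPKM.

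Gulo encodes the enzyme of the last step of vitamin C synthesis, which mice retain. It was at 2.26 FPKM at E11.5, then 28.6 at E13.5, 8.39 by E15.5 and 9.23 by E18.5. Prodh2, a gene for an enzyme of hydroxyproline breakdown, was at 1.60, 13.9, 6.54 and 1.12 FPKM in the same stages. After E15.5 the 2 genes differed: Gulo was at 1.10 times its E15.5 level at E18.5, which could not be tested, and Prodh2 was lower at E18.5 than at E15.5 by 1.82 on the log2 scale (SE 0.15, adjusted p = 8.27e-05, limma). Pctp, which encodes a carrier of phosphatidylcholine, was at 7.07, 15.6, 8.36 and 3.81 FPKM. Steap1, a gene of the STEAP family of membrane proteins, was at 6.34, 19.6, 9.83 and 6.27 FPKM.

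Several genes of the endocrine cascade were lower at E15.5 than at E13.5 and E18.5, but their E18.5 levels were above those at E13.5 or within 0.7 of them, so they were no members. Neurog3 was at 0.424 FPKM at E11.5, then 137 at E13.5, 88.1 by E15.5 and 193 by E18.5. Pax4, a factor of the beta and delta lineages, was at 0.245, 68.8, 27.2 and 63.7 FPKM, and Fev, a factor of late endocrine progenitors, at 0.253, 70.2, 30.7 and 58.6 FPKM. In Nkx2-2, a homeobox factor of endocrine precursors, the values were 0.380, 25.9, 15.1 and 23.6 FPKM. Of 38 genes measured from the list of this cascade, 2 were members, Cck among them, 9 were highest at E13.5 and 13 at E18.5. Those 2 stages were highest in 11.95% and 24.7% of the 12474 protein-coding genes.

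Transcription and chromatin factors among the members numbered 5. Tcf15 (paraxis), a basic helix-loop-helix factor known from somites, was lowest at E18.5. Tcf15 (ENSMUSG00000068079, mm10 chr2:152143561-152149097) was at 12.1 FPKM at E11.5, then 37.0 at E13.5, 11.04 by E15.5 and 1.38 by E18.5. Its E13.5 libraries were 34.7 and 39.3 FPKM and its E18.5 libraries 1.30 and 1.46 FPKM. The 7 mesenchymal markers summed to 197 FPKM at E11.5, then 47.8 at E13.5, 41.7 by E15.5 and 61.6 by E18.5, and their part in the Tcf15 level was not tested.

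Cited1, a co-regulator that binds CBP and p300, was at 17.1 FPKM at E11.5, then 80.7 at E13.5, 40.9 by E15.5 and 27.9 by E18.5. Its libraries were 83.3 and 78.1 FPKM at E13.5 against 39.1 and 42.7 FPKM at E15.5. Cdca7l, which encodes a partner of the Myc protein, was at 13.2, 24.5, 10.8 and 7.99 FPKM. Because 20.8% of the Cdca7l windows occur in another gene, its levels are uncertain. Hmga1b, a copy of the gene of the chromatin protein HMGA1, was at 11.2, 21.3, 11.9 and 3.30 FPKM, and 89.0% of its windows occur in another gene. Hmga1 itself, which was no member, was at 157, 241, 181 and 38.3 FPKM, so the 2 genes had the same order of stages and their reads cannot be told apart with certainty.

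Signalling and surface genes added 5 members. Wnt7b encodes a secreted Wnt ligand of epithelia. Wnt7b (ENSMUSG00000022382, mm10 chr15:85535437-85582473) was at 4.18 FPKM at E11.5, then 13.6 at E13.5, 2.42 by E15.5 and 5.41 by E18.5. Its libraries were 12.8 and 14.5 FPKM at E13.5, 2.65 and 2.18 by E15.5, and 5.19 and 5.64 by E18.5, so it was lowest at E15.5. Of 29 Wnt pathway genes measured, Wnt7b was the 1 member and 17 were highest at E11.5, a stage that was highest in 36.1% of the 12474 protein-coding genes.

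Dlk1 encodes a membrane protein with EGF repeats, related to the Notch ligands, that is expressed from the paternal allele. It was at 69.9 FPKM at E11.5, then 355 at E13.5, 198 by E15.5 and 112 by E18.5. It was the only member among 28 imprinted genes measured, 8 of which were highest at E13.5, and among 26 Notch pathway genes, 4 of which were highest at E13.5. That stage was highest in 11.95% of the 12474 protein-coding genes. Cldn6, a tight junction claudin of embryonic epithelia, was at 198, 464, 281 and 197 FPKM. The claudins Cldn7 and Cldn4 did not have this form, Cldn7 with 53.3, 203, 255.5 and 243 FPKM and Cldn4 with 8.74, 38.2, 39.1 and 42.8 FPKM.

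Dusp9 encodes a phosphatase that inactivates MAP kinases. It was at 4.60 FPKM at E11.5, then 23.6 at E13.5, 12.5 by E15.5 and 1.61 by E18.5, with libraries of 23.6 and 23.5 FPKM at E13.5. Chrna4, a nicotinic acetylcholine receptor subunit best known from neurons, was at 4.99, 10.7, 4.82 and 1.02 FPKM in the same order. The 5 neural and glial markers summed to 17.8 FPKM at E13.5 and 595 FPKM at E11.5, and their part in the Chrna4 level was not tested.

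Of the 7 other named genes, 4 had few shared windows. Tmem171, a gene for a membrane protein, was at 2.50 FPKM at E11.5, then 57.6 at E13.5, 22.4 by E15.5 and 17.9 by E18.5, with E13.5 libraries of 57.5 and 57.8 FPKM. Smtnl2 (a smoothelin-like gene) was at 22.2, 58.5, 23.3 and 33.7 FPKM. Mxra7 was at 14.98, 35.5, 11.9 and 18.8 FPKM, and Shisal2a at 6.497, 20.9, 11.1 and 9.75 FPKM. Smtnl2 and Mxra7 were both higher at E18.5 than at E15.5 in each library.

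Sumo2, Gapdh and Tsr1 are genes used by all cells, and 19.2%, 25.1% and 29.1% of their windows, in that order, occur in another gene, so their levels are uncertain. Sumo2 encodes a ubiquitin-like modifier. It was at 68.0 FPKM at E11.5, then 174 at E13.5, 29.4 by E15.5 and 36.2 by E18.5, but its libraries were 6.06 and 52.8 FPKM at E15.5 and 50.5 and 85.5 FPKM at E11.5. The E15.5 libraries held 132 and 996 reads, a gap of 26.6 times the counting error. Gapdh, the glycolytic enzyme gene, was at only 4.53, 12.7, 2.89 and 1.67 FPKM, where the glycolytic gene Aldoa was at 340, 310, 346 and 458 FPKM. Gapdh libraries at E13.5 were 15.8 and 9.53 FPKM, 10.7 times the counting error apart. Tsr1, which takes part in maturing the small ribosomal subunit, was at 5.41, 11.3, 5.25 and 5.49 FPKM.

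The last 3 members were predicted genes. Gm8773, on chromosome 5, had the second largest distance of all members, 2.19. Its level was 2.73 FPKM at E11.5, then 16.0 at E13.5, 1.06 by E15.5 and 0.356 by E18.5, and its libraries at E13.5 were 16.1 and 15.9 FPKM. None of its windows were shared with another gene. Gm8113 was at 6.42, 20.0, 5.38 and 6.36 FPKM and Gm7879 at 8.45, 23.4, 13.3 and 8.54 FPKM, with 41.0% and 77.9% of their windows shared.

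Sequence shared with other genes was counted over the whole set, as a description with no test. At least 15% of the windows were shared in 12 of 34 members (35.3%) and in 643 of the 4308 other genes at 10 FPKM or more at E13.5 (14.9%). The 12 included the 5 serpins. Among members that were split and at 1 FPKM or more in a stage, the libraries differed by more than 1.5-fold in 4 of 31 (E11.5), 1 of 27 (E13.5), 1 of 31 (E15.5) and 2 of 29 (E18.5), against 0.262%, 0.144%, 0.284% and 0.225% of the other genes at the same floor. Of these 8 cases 5 had only 18 to 114 reads per library and gaps of 2.02 to 3.15 times the counting error (Cck and Gulo at E11.5, Serpina1e at E18.5, and Serpina1c at both stages). Members are low outside E13.5 by the rule, and read number was not matched between them and the other genes. A gap over 5 times the counting error occurred in 3 members, Sumo2, Gapdh and Serpina1a, all among the 12. The same count was not made over the other genes, so no share can be set beside it. The part of shared reads in the E13.5 peaks of members was not tested.

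**Figure D4:**
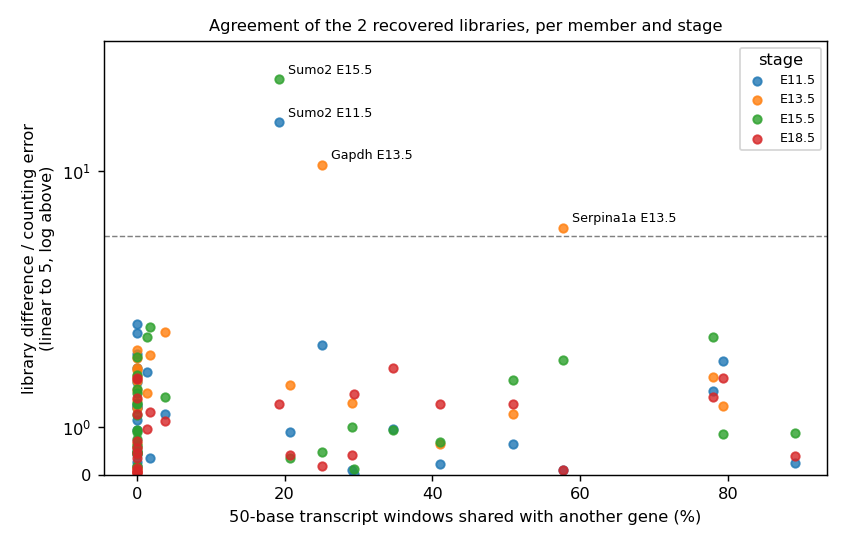
Each point is 1 member at 1 stage at 1 FPKM or more, placed by the percentage of its 50-base transcript windows that occur in another gene and by the difference of its 2 libraries divided by the counting error, on an axis that is linear up to 5 and logarithmic above. The 4 named points above the dashed line at 5 are Sumo2 at E11.5 and E15.5, Gapdh at E13.5 and Serpina1a at E13.5, with 19.2%, 25.1% and 57.6% of windows shared for the 3 genes.

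Base composition of the promoters was described in the same way, with no test. In the 26 member windows with a RefSeq promoter the median was 12.5 CpG pairs, and in the 3464 others it was 22. At most 5 CpG pairs were found in 7 of 26 (26.9%), against 4.45% of the others, but 5 of the 7 were the near-identical Serpina1 copies, which also enter the medians, and the remaining 2 were Gast and Prodh2. The median GC content was 56.7% in member windows and 60.7% in the others. The GGGCGG letters of Sp1 sites were in 46.2% of member windows and 67.6% of the others, and CCAAT in 42.3% and 41.2%, in each case on either strand. The remaining letters searched were TGTTTAC (7.69% of member windows, 2.54% of the others), TAATTA, the core of homeobox sites (3.85% and 2.02%), and TGACGTCA, the site of CREB factors (7.69% and 3.81%).

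The stages other than E13.5 allow comparisons that the rule did not use. A gene counted as higher or lower when the deposited values were at least 2-fold apart and the higher was 5 FPKM or more. At E15.5 against E11.5, 11 of 34 members were higher and 2 lower, against 13% and 10.2% of the 12474 protein-coding genes that reached 1 FPKM in some stage. Among the 4308 other genes at the same E13.5 minimum the shares were 23.4% and 8.87%. The 11 were Serpina1c, Cck, Gast, Tmem171, Prodh2, Gulo, Dlk1, Serpina1e, Dusp9, Cited1 and Slc38a5, from 20.3-fold down to 2.35-fold, and the 2 lower genes were Serpina1d and Sumo2. The Sumo2 call rests on 1 of its E15.5 libraries (6.06 and 52.8 FPKM at E15.5, against a mean of 68.0 FPKM at E11.5), and limma did not call it (adjusted p = 0.136). When each stage was set to the same FPKM total, 5 were higher and 9 lower.

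At E18.5 against E15.5, 3 members were higher and 8 lower, against 6.98% and 6.92% of the 12474 genes, and 6.5% and 13.2% of the 4308. Among the 3 higher members were Slc38a5 (2.34-fold) and Wnt7b (2.24-fold). The 8 lower members were Serpina1c, Serpina1b, Tcf15, Dusp9, Serpina1e, Prodh2, Hmga1b and Pctp. The largest of these differences was that of Serpina1c, at 2.40 FPKM at E18.5 against 31.1 FPKM at E15.5 (log2 difference -3.25 ± 0.19 SE, adjusted p = 2.00e-05, limma). Serpina1c was picked here for its size, and 79.3% of its windows occur in another gene, so the level of this copy is uncertain. Without the members that share 15% or more of their windows, 3 were higher and 4 lower.

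At E18.5 against E11.5, 6 members were higher and 5 lower, against 11.7% and 9.86% of the 12474 genes and 16.5% and 10.7% of the 4308. Among the higher members were Cck, Tmem171, Gast, Slc38a5 and Gulo, from 9.60-fold down to 4.08-fold. The lower members were Tcf15, Serpina1a, Serpina1b, Hmga1b and Serpina1e, of which only Tcf15 shares under 15% of its windows.

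**Figure D5:**
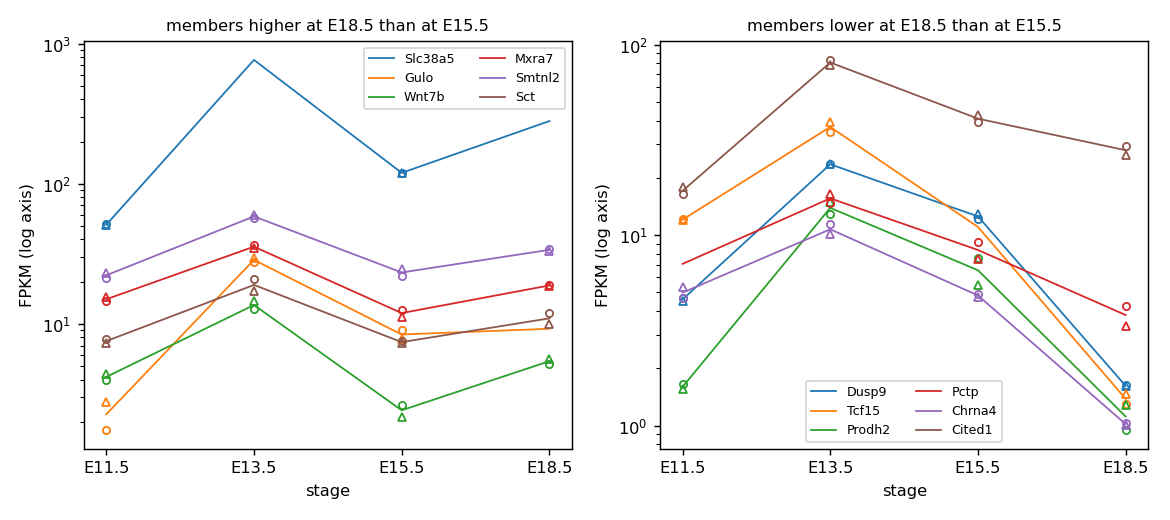
Both panels plot FPKM on a log axis against stage, with lines for the deposited means and circles and triangles for the 2 recovered libraries where a mean could be split. The left panel holds 6 members that are lowest after E13.5 at E15.5, such as Slc38a5 (280 FPKM at E18.5 and 120 FPKM at E15.5). The right panel holds 6 members that are lower at E18.5 than at E15.5, such as Dusp9 (1.61 FPKM at E18.5 and 12.5 FPKM at E15.5).

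The recovered libraries gave many more calls, in members and elsewhere. With limma on log2(FPKM + 1) and an adjusted p limit of 0.05, 14 of the 29 members tested rose and 8 fell at E15.5 against E11.5, beside 39.6% and 38.3% of all 12778 genes tested. At E18.5 against E15.5, 7 of 29 rose and 16 fell, beside 34% and 34.4% of 12863 genes. At E18.5 against E11.5, 9 of 28 rose and 11 fell, beside 35.7% and 38.9% of 12800 genes. The spread used here is that of libraries within a stage, and variation between embryos may be missing from it.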

How the data were processed

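The authors deposited 1 file of FPKM values for each stage, which the file headers call averages. HISAT2 2.0.5 and mm10 are listed in the submitters' processing notes, without a counting tool, an annotation or a number of libraries. Gene names and exon lengths were taken from GENCODE M21, on the same build, and promoter sequences from RefSeq (GRCm38.p6). The members and gene lists were chosen with earlier results of these data known. The results of 1 of the 34 members are not reported here beyond the counts; other genes came from the lists, from the limit of the rule, or, like Serpina6, were named after their values were seen.

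Levels are FPKM as deposited, and differences are on log2(FPKM + 1), which understates changes of low genes. Each mean was split into whole reads of 2 libraries where 1 pair alone gave it within 0.75 of the last printed place and at most 0.05 pairs were expected by chance; 93.5% to 93.7% of the genes attempted were split, and on simulated data 0 splits were wrong. Those simulations used the formula of the split, so they give no error rate for the files. The split also gave the number by which each library was divided, which was not its read total. At E15.5 these numbers were 1.25e+07 and 1.09e+07, against an estimated 1.58e+07 and 1.37e+07 reads. At E11.5 they were 1.85e+07 and 1.81e+07, against an estimated 1.66e+07 and 1.63e+07 reads. Some scaling between stages is thus already in the deposited values. Library values were tested with limma (version 3.58.1, R 4.3.3) using its trend option, and p-values were adjusted by Benjamini-Hochberg over all genes tested. On simulated data of 11978 genes for E15.5 against E11.5, 30 of 50 genes set to 2-fold higher, 21 of 50 set to 2-fold lower and 10 of 11778 left alone were called. That simulation gave all genes the same assumed spread and changed few of them. In the data 68.4% to 77.9% of the genes tested were called, so the simulation gives no rate of false calls for them. Counting errors cover reads only. Likeness of profiles was not computed, since 4 stages are too few for a correlation.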

Additional observations from a re-analysis of the deposited data

How the results depend on the processing

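The set itself depends on its limits. It held 34 genes as defined, 63 with a distance of 0.5, 16 with a distance of 1.0, and 99 with each stage set to the same FPKM total, of which 32 were among the 34. That scaling shifts the median gene on the log2 scale by 0.36 (E11.5), 0.20 (E13.5), -0.32 (E15.5) and -0.10 (E18.5). Pseudocounts of 0.1 and 5 gave 37 and 24, minimum levels of 5 and 20 FPKM gave 44 and 23, and median-of-ratios factors gave 31. Of the 34 distances, none changed sign under either scaling or pseudocount. That was set in advance and is no separate support for the peaks. A pseudocount cannot change the order of stages. Neither scaling lowered E13.5 against another stage by as much as the distance that the rule asked for. Alternatives added after seeing the data were all gene biotypes (36 genes) and leaving out members that share 15% or more of their windows (22).

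Members higher at E15.5 than at E11.5 (11) numbered 6 at 3-fold and 5 at the same FPKM total. Those lower (2) numbered 0 at 3-fold, 4 with no minimum, 9 at the same FPKM total, 8 by limma and 0 without shared windows. At E18.5 against E15.5, the 3 higher became 5 at 1.5-fold, 0 at 3-fold and 7 by limma, and the 8 lower became 16 by limma and 4 without shared windows. At E18.5 against E11.5, the 6 higher became 10 at 1.5-fold, and the 5 lower became 8 at 1.5-fold, 10 with no minimum, 12 at the same FPKM total, 11 by limma and 1 without shared windows. The cause of these shifts was not tested beyond what each setting fixes by its construction. Members whose means could not be split had no library spread and no limma test. No paired analysis was possible because each stage has 1 sample, with no replicate numbers shared between stages. Leaving out a replicate was not possible for the same reason.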

Other observations

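Outside the protein-coding genes, 2 of 265 genes at 10 FPKM or more at E13.5 met the same limits. Gm49708, a processed transcript on chromosome 16, was at 17.4 FPKM at E11.5, then 40.8 at E13.5, 22.6 by E15.5 and 15.8 by E18.5. Gm6750, a processed pseudogene on chromosome 12, was at 14.4 FPKM at E11.5, then 31.5 at E13.5, 18.47 by E15.5 and 11.2 by E18.5. Of their 50-base windows, 50.2% and 77.2% occur in another gene.

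Some gene groups had E13.5 as highest stage by smaller steps. Of 36 cell cycle genes measured, 13 were highest at E13.5 and 0 were members. Of 9 oncofetal genes measured, 4 were highest at E13.5, such as Hmga2 at 15.1 FPKM at E11.5, then 19.2 at E13.5, 15.8 by E15.5 and 2.58 by E18.5. Over all 12474 protein-coding genes measured, E13.5 was highest in 11.95%.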
